A study of Mus with 12 samples.

Results

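The Toll-like receptor and NF-kB feedback genes described here were 10 genes chosen by name, with earlier results of these data known. They were the receptors Tlr2, Tlr4 and Tlr8, the coreceptor Cd14, the adaptor Myd88, the NF-kB subunits Nfkb1 and Relb, and the inhibitors Nfkbia, Nfkbiz and Tnfaip3. Each was read from the probe set annotated with its symbol, or from the brightest on average where a gene had several. Of the 10 genes, 9 had a named probe set, 1 for each gene, among 19505 named genes on the array. Nfkb1, which encodes an NF-kB subunit and its precursor, had no named probe set and was not analysed here.

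Kidney RNA came from 12 male mice, 6 months old and of C57Bl/6j background, with 1 Clariom S array for each mouse and 3 mice in each of 4 groups. KO AKI mice lacked Apobec1, an RNA-editing deaminase, and received cisplatin, a platinum drug that injures kidney tubules, at 15 mg/kg. WT AKI mice were wild type and received the same dose. KO control and WT control mice had the same genotypes and received saline, and kidneys were taken at 3 days. The KO was in all cells of the body. According to the labels, WT mice were purchased and KO mice were bred in house, so genotype and source of the mice cannot be told apart. The labels describe the KO AKI kidneys as severe AKI.

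Toll-like receptors bind parts of microbes and molecules set free by damaged cells. Cd14 hands lipopolysaccharide and other ligands to Tlr4 and Tlr2, and Myd88 passes the signal from the receptors to kinases that release NF-kB from its inhibitor, the Nfkbia protein. NF-kB then switches on inflammatory genes together with its own brakes, Nfkbia and Tnfaip3, so that mRNA of these brakes is a common readout of NF-kB activity. In the kidney, tubule cells as well as resident and infiltrating leukocytes carry Tlr2 and Tlr4, and both receptors have been studied in cisplatin and ischemic injury.

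Values are log2 signals as deposited, so that differences are log2 ratios of signals. A signal was read as above background when it exceeded, on the same array, the 95th percentile of the 23 control probe sets of antigenomic sequence, designed to pair with no mouse RNA. Between 44.3% and 47.0% of genes were above background on each array. Apobec1 itself gave signals of 7.33 to 9.75 in KO AKI, 8.38 to 8.97 in WT AKI, 7.50 to 7.66 in KO control and 6.63 to 7.33 in WT control. KO AKI and WT AKI overlapped and KO control lay above WT control. Since it is not known which part of the transcript its probe set reads, these signals do not check the genotype, and KO stands for the arrays with that label. KO AKI replicate 2 stood apart, with 0 of 11 proximal tubule markers higher than on replicates 1 and 3 on average and a median difference of -3.77, while the median over all genes was 0.02. Values without it stand beside the results that it moved most. In whole kidneys, a change in the number of cells that express a gene and a change in its RNA per cell cannot be told apart.

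Cisplatin was followed by higher signals of most of these genes in both genotypes. In KO kidneys, 8 of the 9 measured genes were called higher in KO AKI than in KO control at an adjusted p under 0.05 (limma, Benjamini-Hochberg over all 19505 genes), and in WT kidneys 6 of 9 were called higher in WT AKI than in WT control. None was called lower in either comparison. Over all genes, 27.9% were called between KO AKI and KO control, with 15.4% called higher in KO AKI, and 14.0% were called between WT AKI and WT control, with 8.63% called higher in WT AKI. All 3 AKI arrays lay above all 3 control arrays for 8 of the 9 genes in KO, against 22.8% of all genes, and for 7 of 9 in WT, against 22.2% of all genes. The median log2 difference over the 9 genes was 2.23 in KO and 1.51 in WT, and over all genes it was 0.06 in both.

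**Figure D1:**
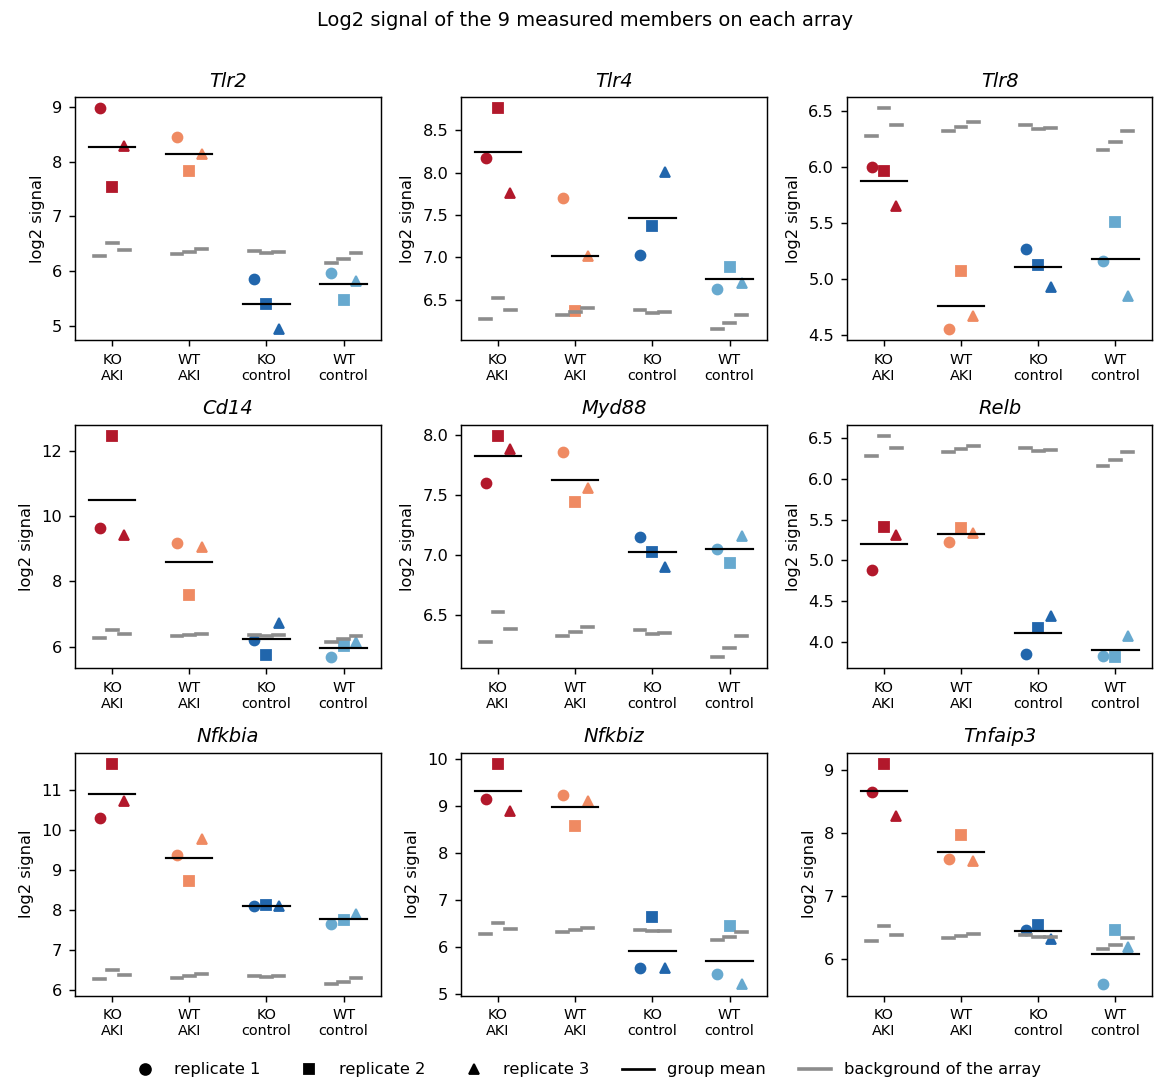
Log2 signal (vertical axis) of the 9 measured genes on the 12 arrays, with groups from left to right KO AKI, WT AKI, KO control and WT control. Symbols give replicates 1 to 3, black lines the group means (n = 3) and grey lines the background of each array. Nfkbiz lies between 8.57 and 9.90 on the 6 AKI arrays and between 5.21 and 6.64 on the 6 control arrays, while Tlr8 and Relb lie below background on all 12.

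Among the receptors, Tlr2, which senses bacterial lipoproteins and products of damaged cells, was above background on AKI arrays only. Its signals were 8.97, 7.53 and 8.29 in KO AKI and 8.45, 7.82 and 8.13 in WT AKI, whereas they were 5.85, 5.40 and 4.94 in KO control and 5.96, 5.47 and 5.83 in WT control. All AKI arrays of both genotypes were above all control arrays, and the 6 control arrays were all below background. Tlr2 was therefore at least 3.76-fold higher in KO AKI than in KO control (adjusted p = 5.74e-05 from limma) and at least 3.73-fold higher in WT AKI than in WT control (adjusted p = 0.000712), taking the background of each control array as the level there.

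Tlr4, the receptor for lipopolysaccharide, was above background on all 12 arrays and was not called after cisplatin in either genotype. Its signals were 8.18, 8.76 and 7.76 in KO AKI and 7.70, 6.36 and 7.01 in WT AKI. In the saline groups they were 7.03, 7.37 and 8.01 in KO control and 6.62, 6.89 and 6.70 in WT control. The AKI arrays overlapped the control arrays in each genotype, as KO control replicate 3 was above KO AKI replicate 3 and WT AKI replicate 2 was below the WT control arrays. The difference of KO AKI from KO control was 0.76 (95% confidence interval 0.02 to 1.51, adjusted p = 0.117 from limma), and that of WT AKI from WT control was 0.29 (-0.46 to 1.03, adjusted p = 0.617).

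Tlr8, an endosomal receptor of the family that reads single-stranded RNA, was below background on all 12 arrays, so no fold is given for it. It read 6.00, 5.96 and 5.65 in KO AKI, 4.55, 5.07 and 4.67 in WT AKI, 5.27, 5.12 and 4.93 in KO control and 5.16, 5.51 and 4.85 in WT control. The KO AKI arrays were the highest of the 12, and the WT AKI arrays overlapped the WT control arrays. The difference was 0.76 in KO (adjusted p = 0.0207 from limma) and -0.41 in WT (adjusted p = 0.227). The KO call was lost without KO AKI replicate 1 (adjusted p = 0.0539), KO control replicate 2 (0.0509) or KO control replicate 3 (0.0762), with array weights (0.0528) and after quantile normalization (0.0513).

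Cd14, the coreceptor of Tlr4 and Tlr2 and a marker of monocytes, differed between AKI and control arrays in both genotypes. Its signals were 9.62, 12.45 and 9.43 in KO AKI, 9.18, 7.57 and 9.05 in WT AKI, 6.20, 5.75 and 6.74 in KO control and 5.69, 6.03 and 6.14 in WT control. Every AKI array was above every control array, and KO AKI replicate 2 was far above the other 2 of its group. Of the control arrays, 1 in KO control and 0 in WT control were above background. Cd14 was upregulated 19.4-fold in KO AKI over KO control (log2 difference 4.27, standard error 0.64, adjusted p = 0.000388 from limma), and the log2 difference was 3.30 without KO AKI replicate 2. In WT AKI it was at least 5.17-fold higher than in WT control (log2 difference 2.65, adjusted p = 0.0163), a bound that cannot be set beside the KO fold. The WT call was lost without WT AKI replicate 1 (0.0696), WT AKI replicate 3 (0.0628) or WT control replicate 1 (0.0623).

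Myd88, the adaptor shared by most Toll-like receptors and the interleukin-1 receptor, moved within a narrow range. Its signals were 7.60, 7.99 and 7.88 in KO AKI, 7.86, 7.44 and 7.56 in WT AKI, 7.15, 7.02 and 6.90 in KO control and 7.05, 6.93 and 7.16 in WT control, all above background. All AKI arrays were above all control arrays. Myd88 was upregulated 1.74-fold in KO AKI over KO control (log2 difference 0.80, standard error 0.19, adjusted p = 0.00689 from limma). The difference of WT AKI from WT control was 0.58 (95% confidence interval 0.17 to 0.98) and was not called (adjusted p = 0.0579), although it was called without KO AKI replicate 2 (0.0417), with array weights (0.0328) and over genes above background alone (0.0484).

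Relb, the NF-kB subunit of the noncanonical pathway, was below background on all 12 arrays, so no fold is given for it either. It read 4.88, 5.41 and 5.31 in KO AKI and 5.23, 5.40 and 5.33 in WT AKI. In the saline groups it read 3.85, 4.17 and 4.32 in KO control and 3.83, 3.82 and 4.07 in WT control. The 6 AKI arrays were all above the 6 control arrays, and the log2 difference was 1.09 in KO (adjusted p = 0.00166 from limma) and 1.41 in WT (adjusted p = 0.000795).

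Of the inhibitors, Nfkbia encodes the protein that holds NF-kB in the cytoplasm and is itself a rapid target of NF-kB. Its signals were 10.31, 11.66 and 10.72 in KO AKI, 9.38, 8.73 and 9.79 in WT AKI, 8.10, 8.14 and 8.10 in KO control and 7.66, 7.76 and 7.92 in WT control. No array of a group overlapped another group, and the order from high to low was KO AKI, WT AKI, KO control and WT control. Nfkbia was upregulated 6.92-fold in KO AKI over KO control (log2 difference 2.79, standard error 0.32, adjusted p = 4.76e-05 from limma) and 2.86-fold in WT AKI over WT control (log2 difference 1.51, standard error 0.32, adjusted p = 0.00749). Without KO AKI replicate 2 the KO difference was 2.41.

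Nfkbiz encodes a nuclear member of the same inhibitor family, which curbs some NF-kB targets and is needed for the induction of others such as Il6 and Lcn2. Its signals were 9.15, 9.90 and 8.89 in KO AKI, 9.23, 8.57 and 9.11 in WT AKI, 5.55, 6.64 and 5.56 in KO control and 5.44, 6.45 and 5.21 in WT control. The AKI arrays of the 2 genotypes overlapped, and all were above the control arrays, of which only replicate 2 of each saline group was above background. Nfkbiz was upregulated 10.6-fold in KO AKI over KO control (log2 difference 3.40, standard error 0.38, adjusted p = 4.01e-05 from limma) and 9.67-fold in WT AKI over WT control (3.27, standard error 0.38, adjusted p = 0.000167).

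Tnfaip3 encodes A20, a ubiquitin-editing enzyme that ends NF-kB signalling. Its signals were 8.65, 9.10 and 8.26 in KO AKI, 7.59, 7.96 and 7.55 in WT AKI, 6.45, 6.54 and 6.32 in KO control and 5.59, 6.45 and 6.19 in WT control. The 3 KO AKI arrays were the highest, followed by the 3 WT AKI arrays, and the saline groups overlapped. Tnfaip3 was upregulated 4.68-fold in KO AKI over KO control (log2 difference 2.23, standard error 0.26, adjusted p = 5.63e-05 from limma) and 3.07-fold in WT AKI over WT control (1.62, standard error 0.26, adjusted p = 0.00171), with 2 KO control arrays and 1 WT control array above background.

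The scaling of the arrays changed the balance of directions over all genes, though not the directions of these 9. Of the genes called between WT AKI and WT control, 61.8% were higher in WT AKI as deposited, 50.7% after quantile normalization and 38.8% after median centring. Between KO AKI and KO control the shares were 55.0%, 49.2% and 41.9%. Median centring moved the median of all genes to -0.09 in WT and -0.07 in KO. Under all 3 scalings 9 of 9 genes were higher in KO AKI than in KO control and 8 of 9, all but Tlr8, were higher in WT AKI than in WT control.

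**Figure D2:**
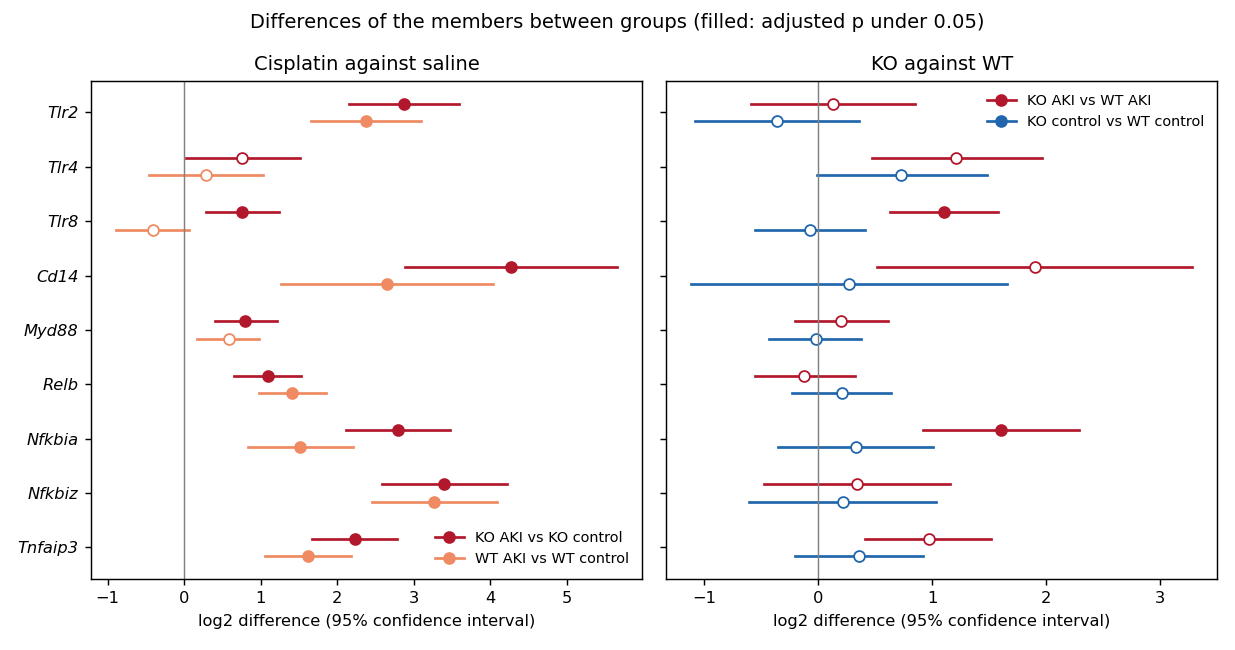
Log2 differences (horizontal axis) of the 9 measured genes with 95% confidence intervals from limma, for cisplatin against saline in each genotype (left) and for KO against WT under each treatment (right), with filled points for an adjusted p under 0.05. In the left panel 8 points of KO and 6 of WT are filled, and in the right panel only Tlr8 and Nfkbia, in KO AKI against WT AKI, are filled.

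Between the cisplatin groups, KO AKI and WT AKI, fewer of the genes were called. Of the 9 genes, 8 had a higher mean in KO AKI than in WT AKI, with a median log2 difference of 0.97, where the median over all genes was -0.01. Only Nfkbia and Tlr8 were called, both higher in KO AKI, against 0.487% of all genes called and 0.246% called higher. All 3 KO AKI arrays were above all 3 WT AKI arrays for 5 genes, Tlr4, Tlr8, Cd14, Nfkbia and Tnfaip3, against 8.42% of all genes, and these 5 had an unadjusted limma p under 0.05. The paper lists Tlr4, Tlr8 and Nfkbia among genes that differed between KO AKI and WT AKI on these arrays. Since the genes were chosen with such results known, the shares over all genes cannot show that they stand out here.

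Nfkbia was upregulated 3.04-fold in KO AKI over WT AKI (log2 difference 1.60, standard error 0.32, adjusted p = 0.0455 from limma). The difference remained between 1.22 and 1.90 when 1 array at a time was left out, but the call held in only 1 of the 12 cases, without KO AKI replicate 1 (adjusted p = 0.0043). In the other 11 cases the adjusted p was between 0.0562, for KO AKI replicate 2, and 0.223, for WT AKI replicate 2. The count of all genes called was 95 with all arrays, 1174 once KO AKI replicate 1 was left out and 2 once WT AKI replicate 2 was. Tlr8 differed by 1.10 (standard error 0.22, adjusted p = 0.0477) at signals below background, and its call also held only without KO AKI replicate 1 (0.0276). Neither gene was called once KO AKI replicate 2 was left out.

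The other 3 genes whose arrays did not overlap were not called between KO AKI and WT AKI. Tlr4 differed by 1.21 (95% confidence interval 0.47 to 1.96, adjusted p = 0.121 from limma). Tnfaip3 differed by 0.97 (0.41 to 1.52, adjusted p = 0.101). For Cd14 the difference was 1.90 (0.52 to 3.28, adjusted p = 0.172), and it was 0.93 without KO AKI replicate 2, the array with a Cd14 signal of 12.45.

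For the remaining 4 genes the KO AKI and WT AKI arrays overlapped. The difference was 0.13 for Tlr2 (95% confidence interval -0.59 to 0.85), 0.20 for Myd88 (-0.20 to 0.61), -0.12 for Relb (-0.55 to 0.32) and 0.34 for Nfkbiz (-0.47 to 1.16). These intervals leave room for differences of up to 0.85 in Tlr2 and 1.16 in Nfkbiz. The 3 inhibitors thus had unequal differences, with Nfkbia called, Tnfaip3 not called and Nfkbiz overlapping. Whether the genes differed from each other was not tested.

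In the saline groups none of the 9 genes was called between KO control and WT control, and 0 had an unadjusted limma p under 0.05, where 0.0513% of all genes were called. By the methods' t-test, 1 of the 9 had an unadjusted p under 0.05 and 0 were called after adjustment. Arrays did not overlap for Tlr4 and Nfkbia, both higher in KO control, against 7.25% of all genes. Tlr4 was higher by 0.73 (95% confidence interval -0.01 to 1.48, adjusted p = 0.821 from limma) and Nfkbia by 0.33 (-0.35 to 1.01, adjusted p = 0.961). The other 7 differences lay between -0.36 for Tlr2, which was below background on these arrays, and 0.36 for Tnfaip3.

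An interaction term tested whether cisplatin changed the genes by a different amount in KO than in WT. None of the 9 genes was called, against 0.0308% of all genes, and 2 had an unadjusted limma p under 0.05. These were Tlr8, with a difference between responses of 1.17 (95% confidence interval 0.50 to 1.85, adjusted p = 0.245 from limma), and Nfkbia, with 1.28 (0.31 to 2.24, adjusted p = 0.365). For Cd14 the value was 1.63 (-0.33 to 3.58, adjusted p = 0.567). Leaving out KO AKI replicate 2 gave 0.89 for Nfkbia and 0.65 for Cd14. Among the remaining 6 it ran from -0.32 for Relb to 0.61 for Tnfaip3. The exact permutation test of 3 arrays against 3 cannot go below a p of 0.1, so no single gene was tested that way.

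The genes that act beside these 9 were grouped by role in the pathway. For the counts below, 15.4% of all genes were called higher in KO AKI than in KO control and 8.63% in WT AKI than in WT control. Called lower in these comparisons were 2449 and 1042 of the 19505 genes. Of 14 other Toll-like receptors and coreceptors, 4 were called higher and 1 lower in KO AKI than in KO control, with a median of 0.49, and 0 were called higher and 1 lower in WT AKI than in WT control, with a median of 0.07. Tlr13, a rodent receptor for bacterial ribosomal RNA, was the only 1 of the 14 called between KO AKI and WT AKI. Its signals were 7.37, 7.14 and 7.01 in KO AKI and 5.56, 5.19 and 5.82 in WT AKI, and it was above background on KO AKI arrays only. It was at least 1.76-fold higher in KO AKI than in WT AKI (adjusted p = 0.0368 from limma, lost in 6 of 12 fits that each left out 1 array, at up to 0.208 without WT AKI replicate 2) and at least 1.76-fold higher than in KO control (adjusted p = 0.000147).

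Ly96, which encodes MD-2, the part of the Tlr4 complex that binds lipopolysaccharide, was called higher in KO AKI than in KO control (log2 difference 0.74, adjusted p = 0.0221 from limma, lost in 3 of the 12 such fits, at up to 0.0866), and its difference in WT was -0.01 (adjusted p = 0.98). Cd36, a scavenger receptor that works with Tlr2, was also called in KO (1.09, adjusted p = 0.0255, lost in 4 of 12 at up to 0.0973), and the fourth was Unc93b1, a chaperone of endosomal receptors (adjusted p = 0.0381, lost in 5 of 12 at up to 0.118). Unc93b1 was above background on 2 KO AKI arrays and 0 KO control arrays, so no fold is given. Tlr12, a mouse receptor for a parasite protein, went the other way. It fell in KO AKI against KO control by 2.27 (adjusted p = 0.00124) and in WT AKI against WT control by 1.35 (adjusted p = 0.0406, lost in 8 of 12 at up to 0.142 without WT AKI replicate 1).

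Of 10 genes listed as ligands of the receptors or carriers of ligands, 5 were called higher in KO AKI than in KO control and 0 lower (median 0.75). In WT 1, Sdc1, was called higher and 1 lower (median 0.29). Sdc1, a surface proteoglycan rather than an established ligand, rose in both genotypes, by 3.08 in KO (adjusted p = 0.000183 from limma) and by 2.25 in WT (adjusted p = 0.00384). S100a9, a calcium-binding protein of neutrophils and monocytes, was called higher in KO AKI than in KO control (adjusted p = 0.00681). It was above background only on KO AKI replicate 2, at 8.03, so no fold is given, and without this array both groups lay below background. The others called in KO were Lbp, which carries lipopolysaccharide to Cd14 and was above background on 2 KO AKI arrays and 0 KO control arrays (no fold given, adjusted p = 0.0178, and 0.0853 without KO control replicate 1), the nuclear protein Hmgb1 (0.64, adjusted p = 0.0247, lost in 3 of 12 at up to 0.0845) and the matrix proteoglycan Bgn (0.83, adjusted p = 0.0334, lost in 4 of 12 at up to 0.12). Hspd1, a mitochondrial chaperone, fell in WT AKI by 0.85 (adjusted p = 0.0346, lost in 5 of 12 at up to 0.121). Without KO AKI replicate 2, 3 of the 10 were called higher in each genotype.

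Of 13 adaptors and kinases between receptor and NF-kB, measured from a list of 17, 2 were called higher in KO AKI than in KO control (median 0.17), where 15.4% of all genes were called higher, and 0 in WT AKI against WT control (median 0.10), where 8.63% were. The 2 were Tirap, the sorting adaptor that brings Myd88 to Tlr2 and Tlr4 (at least 2.54-fold higher, log2 difference 1.7, adjusted p = 0.0152 from limma, 0.0516 without KO control replicate 3), and Ikbkg, the regulatory subunit of the kinase that marks the Nfkbia protein for destruction (log2 difference 1.40, adjusted p = 0.00768). Their WT differences were 1.42 for Tirap (adjusted p = 0.0579) and 0.31 for Ikbkg (adjusted p = 0.57).

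Among the NF-kB subunits beside Relb, Rela and Nfkb2 rose in both genotypes. Rela, the main activating subunit, had signals of 13.16, 14.23 and 13.08 in KO AKI, 13.02, 12.13 and 13.27 in WT AKI, 11.06, 11.59 and 11.39 in KO control and 11.30, 11.19 and 11.27 in WT control. All AKI arrays were above all control arrays, with a log2 difference of 2.14 in KO (adjusted p = 0.000442 from limma) and 1.55 in WT (adjusted p = 0.0078). Nfkb2, the partner of Relb, was below background on all 6 control arrays and was at least 2.53-fold higher in KO AKI than in KO control (adjusted p = 5.21e-05) and at least 1.62-fold higher in WT AKI than in WT control (adjusted p = 0.00252). Rel, the subunit of lymphoid and myeloid cells, differed by 0.06 in KO and 0.22 in WT and was not called. Between KO AKI and WT AKI none of the 3 was called.

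Of 17 other inhibitors and feedback regulators measured from a list of 18, 5 were called higher in KO AKI than in KO control (median 0.50) and 3 in WT AKI than in WT control (median 0.56), with 0 called lower in either. Bcl3, another nuclear member of the inhibitor family, was below background on all control arrays and was at least 1.80-fold higher in KO AKI than in KO control (adjusted p = 8.87e-05 from limma) and at least 1.89-fold higher in WT AKI than in WT control (adjusted p = 0.000685). Atf3, a repressor induced by Toll-like receptors and by stress, was at least 6.33-fold higher in KO AKI than in KO control (log2 difference 2.98, adjusted p = 0.000142). Its log2 difference in WT was also 2.98 (adjusted p = 0.000414). Socs3, a brake on cytokine receptors that was below background throughout, was called in both genotypes, at adjusted p = 0.00347 in KO and 0.0114 in WT (0.0544 without WT AKI replicate 3), with no fold given. Irak3, a decoy kinase of the Myd88 complex, was called in KO alone (1.32, adjusted p = 0.0186, lost in 3 of 12 fits without 1 array, at up to 0.0824), as was Nfkbie, another cytoplasmic inhibitor (adjusted p = 0.022, lost in 4 of 12 at up to 0.0797), at signals below background. Between KO AKI and WT AKI 0 of the 17 were called.

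**Figure D3:**
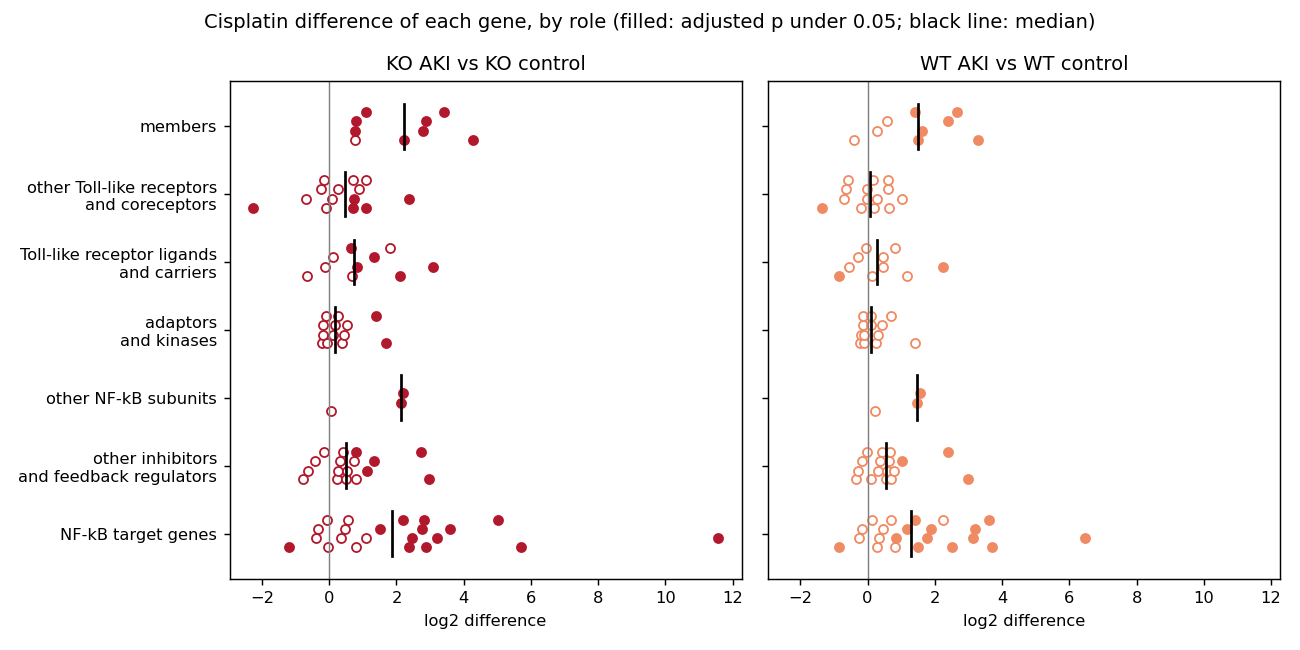
Log2 difference (horizontal axis) of every measured gene by role in the pathway (rows), for KO AKI against KO control (left) and WT AKI against WT control (right). Each point is 1 gene, filled at an adjusted p under 0.05 from limma, and black lines are medians, which for the 9 members are 2.23 and 1.51 and for the adaptors and kinases 0.17 and 0.10.

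Genes that NF-kB is known to induce were measured for all 22 of a list. In KO AKI against KO control 12 were called higher and 1 lower (median 1.86), and in WT AKI against WT control 12 were called higher and 1 lower (median 1.30). Lcn2, a siderophore-binding protein of injured tubules that needs Nfkbiz for induction in macrophages, had signals of 17.05, 19.25 and 17.93 in KO AKI, 15.30, 13.19 and 14.51 in WT AKI, 6.31, 6.90 and 6.31 in KO control and 7.93, 7.23 and 8.41 in WT control. It was the only gene of the pathway lists called in the interaction (5.09, adjusted p = 0.0478 from limma, lost in 9 of 12 fits without 1 array, at up to 0.208), and its difference of KO AKI from WT AKI was 3.74 (adjusted p = 0.0146, 0.0946 without WT AKI replicate 2 and 0.0624 without WT AKI replicate 3). Il1rn, the antagonist of the interleukin-1 receptor, was the other target called between KO AKI and WT AKI (2.06, adjusted p = 0.0333, lost in 8 of 12 at up to 0.19).

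The chemokine Cxcl1 and the survival factor Birc3 rose in both genotypes. Cxcl1 was below background on all control arrays and was at least 5.08-fold higher in KO AKI than in KO control (adjusted p = 3.76e-07 from limma) and at least 2.15-fold higher in WT AKI than in WT control (adjusted p = 1.58e-05). Birc3 differed by 2.83 in KO (adjusted p = 6.46e-07) and by 1.90 in WT (adjusted p = 5.25e-05). Sod2, a mitochondrial superoxide dismutase that was named after its values were seen, was the target called lower, with a difference of -1.19 in KO AKI from KO control (adjusted p = 0.000892) and of -0.86 in WT AKI from WT control (adjusted p = 0.0138, 0.0517 without WT AKI replicate 3 and 0.0511 without WT control replicate 1).

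Markers of leukocytes and of the tubule were read on the same arrays as these genes. Of 13 macrophage and monocyte markers, 7 were called higher in KO AKI than in KO control and 1, Itgam, in WT AKI than in WT control, with 0 called lower, and the counts without KO AKI replicate 2 were 8 and 5. Over all genes 15.4% and 8.63% were called higher in these comparisons, and without KO AKI replicate 2 it was 2485 and 2384 of 19505. The macrophage and monocyte markers had a mean signal of 7.11 to 8.52 in KO AKI, 6.73 to 7.47 in WT AKI, 6.08 to 6.60 in KO control and 6.44 to 6.61 in WT control, with Cx3cr1 and Cd163 below background on every array. Between KO AKI and WT AKI, Itgam alone was called (2.38, adjusted p = 0.0162 from limma, lost without WT AKI replicate 2 at 0.116 and without WT AKI replicate 3 at 0.0811). Of 10 neutrophil markers 9 were below background on all 12 arrays, and the tenth, Retnlg, was above it only on KO AKI replicate 2, at 8.57. Their mean signal was 4.20 to 5.10 in KO AKI, 4.17 to 4.43 in WT AKI, 3.91 to 4.29 in KO control and 3.92 to 4.12 in WT control. At these low signals 3 of the 10 were called higher in KO AKI than in KO control and 2 in WT AKI than in WT control. None was called lower in either. Without KO AKI replicate 2, 2 were called higher and 1 lower in KO, and 3 were called higher and 0 lower in WT. Of 6 T cell markers, 5 were below background on all 12 arrays. In KO AKI against KO control 0 T cell markers were called higher and 1 lower (median -0.46), and 0 lower without KO AKI replicate 2. All 4 B cell markers were below background on all 12 arrays, with 0 called higher and 1 lower in that comparison (median -0.11). In WT AKI against WT control 0 markers of either list were called. The part of leukocytes in the differences above was not tested.

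Proximal tubule markers went the other way. Of 11, 9 were called lower in KO AKI than in KO control (median -3.14) and 0 were called in WT AKI against WT control (median -0.50) or in KO AKI against WT AKI (median -2.40). When KO AKI replicate 2 was left out, 9 were called lower in the KO comparison (median -1.59), 3 in the WT comparison and 3 in KO AKI against WT AKI (median -1.02). Over all 19505 genes, 2449 were called lower in KO AKI than in KO control, 1042 in WT AKI than in WT control and 47 in KO AKI than in WT AKI. Without KO AKI replicate 2 these counts were 1975, 1656 and 64. The proximal tubule markers had a mean signal of 10.90 to 15.08 in KO AKI, 15.56 to 15.85 in WT AKI, 16.33 to 16.58 in KO control and 16.27 to 16.47 in WT control. On KO AKI replicate 2, the array with the lowest tubule signal, 8 of the 9 genes were higher than on replicates 1 and 3 on average, with a median difference of 0.65. The differences were 2.93 for Cd14, 1.15 for Nfkbia, 0.88 for Nfkbiz, 0.79 for Tlr4 and 0.65 for Tnfaip3, and -1.10 for Tlr2. On the same array 2 of 13 macrophage and monocyte markers and 8 of 10 neutrophil markers were higher, with medians of -1.14 and 0.56. Of 8 distal nephron and collecting duct markers, 4 were called lower in KO AKI than in KO control (median -1.95) and 4 in WT AKI than in WT control (median -1.69). Of 5 endothelial markers, 3 were called lower in KO (median -1.06) and 0 in WT (median -0.39), or 2 in WT without KO AKI replicate 2. All 5 endothelial markers were higher in KO control than in WT control (median 1.05, 0 called), and between KO AKI and WT AKI their median difference was 0.03. The part of tubule injury and of changed cell numbers in the differences of these genes was not tested.

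**Figure D4:**
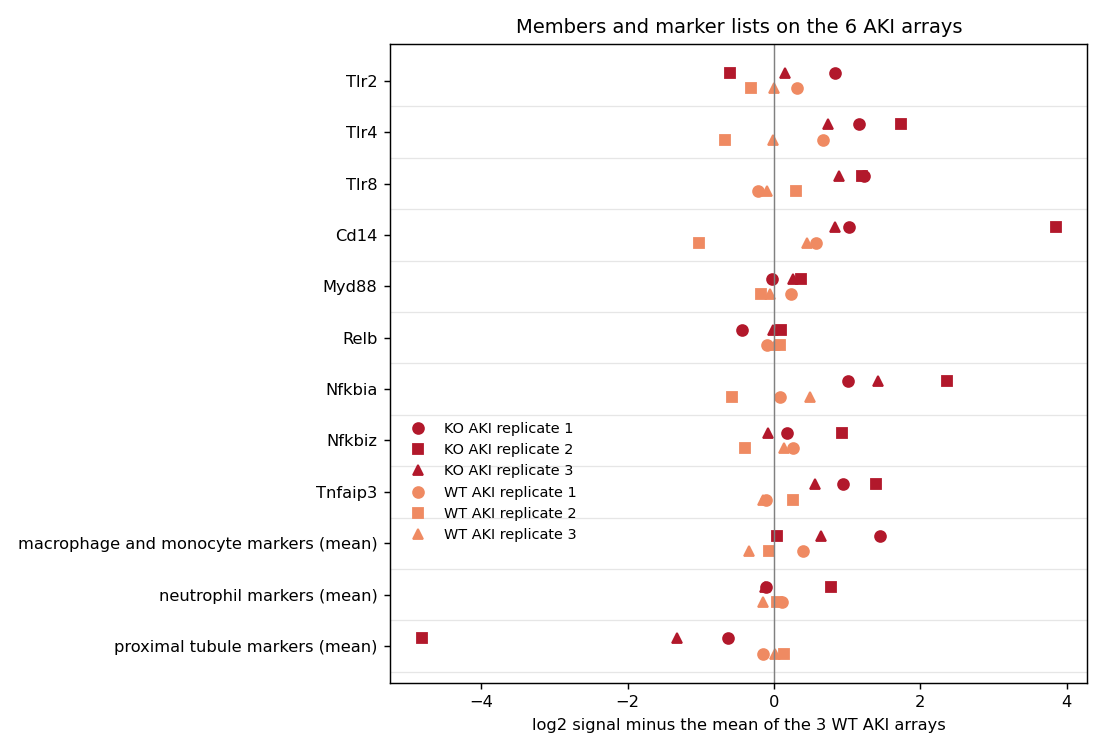
Log2 signal minus the mean of the 3 WT AKI arrays (horizontal axis) for the 9 measured genes and for the mean of 3 marker lists (rows), on the 3 KO AKI and 3 WT AKI arrays. KO AKI replicate 2 (dark squares) lies at the right for Cd14, Nfkbia, Tlr4 and Tnfaip3 and at the left for Tlr2 and for the proximal tubule markers, where its mean signal was 10.90.

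The 9 genes also differed in how much they varied between mice of a group. In KO AKI the SD over the 3 arrays was 1.69 for Cd14, 0.72 for Tlr2 and 0.69 for Nfkbia, against a median SD of 0.31 over all genes, and in WT AKI it was 0.89 for Cd14, 0.31 for Tlr2 and 0.53 for Nfkbia, against a median of 0.24. Nfkbia was nearly constant in KO control, with an SD of 0.02.

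Profiles over the 12 arrays were compared among 9685 genes above background on at least 3 arrays, after each profile was centred on its mean. Nearest to Tlr2, whose own deviations had a root mean square of 1.37, were Samd5 with a root mean square difference of 0.25, Depdc1a with 0.41 and Tagln2 with 0.42. Nearest to Myd88, with deviations of 0.38, were Gltp with 0.09, Srp72 with 0.10 and Cep95 with 0.12. Nearest to Nfkbia, with deviations of 1.27, were Abcc4, Itga3 and Rras with 0.29 each. The measure describes likeness over these arrays alone.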

How the data were processed

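The deposited table holds log2 signals, 1 for a probe set on an array. The submitters' processing notes name Transcriptome Analysis Console as the authors' software, with no version. The background correction and normalization are not given in the sources used here. The deposited log2 values were already summarised over probes and were used without further normalization. Of 28846 entries in the table, 22206 were not controls, 19572 had 1 gene symbol in the platform annotation, and these gave 19505 genes (55 had several probe sets). The labels gave the 4 groups and the replicate numbers, and neither the labels nor the methods give a batch, litter or scan date.

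The means of the 4 groups were fitted to all 12 arrays with limma 3.58.1 in R 4.3.3 (lmFit and eBayes, 8 residual and 5.6 prior degrees of freedom), and p-values were adjusted by Benjamini-Hochberg over all genes. The script was tested on simulated data. The p-values rest on the spread between the 3 mice of a group, pooled over the 4 groups. Over all genes the median SD was 0.31 in KO AKI, 0.24 in WT AKI and 0.23 in each saline group. Where a gene was above background on no array of the dimmer group and on all arrays of the brighter group, its fold is a bound. The bound sets the mean of the brighter group against the higher of background and signal on each dimmer array. Where only some arrays of the brighter group were above background, no fold is given for such a gene. The number of arrays limits the precision.

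The members and lists were chosen with earlier results of these data known. From each list, the text names up to 4 genes with the smallest adjusted p between KO AKI and KO control, those called between KO AKI and WT AKI or in the interaction, and, chosen after their values were seen, Unc93b1, Bgn, Hspd1, Nfkbie, Sod2 and the leukocyte markers named. Alternatives were quantile normalization, median centring, array weights, only genes above background, the mean of probe sets, a trend and robust prior, only the 2 groups compared, a replicate block, each array left out and an unpaired t-test. The t-test took the 2 groups compared with equal variances and Benjamini-Hochberg adjustment, and the methods do not name it for these arrays. Staining, blood tests and RT-qPCR of other mice were not analysed here.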

Additional observations from a re-analysis of the deposited data

How the results depend on the processing

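Under quantile normalization and under median centring, 2 of the 9 members were called between KO AKI and WT AKI. The mean of probe sets could not change the values of the members, since each had 1 probe set. The count over all 19505 genes, 95, was 183 with array weights, 179 over genes above background, 1 with only the 2 groups compared and 0 by the unpaired t-test. The count of 2 members was 1 with array weights, 1 over genes above background, 1 with a trend and robust prior, 0 with only the 2 groups and 0 by the unpaired t-test. With the replicate block these counts were 44 and 0. Deviations of same-numbered arrays from their group means had correlations of -0.114 to 0.088. With so few arrays in a group these correlations cannot exclude a shared litter or day of processing. Whether the numbers pair the mice is not known. The block also gave 6 genes in place of 10 between the saline groups and 0 in place of 6 in the interaction. It changed no other count of members.

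Between WT AKI and WT control, 2726 genes became 4286 with array weights, 1577 over genes above background and 1270 by the unpaired t-test, which called 3 of the 6 members. Between KO AKI and KO control, 5445 genes became 3607 with the 2 groups alone and 662 by the unpaired t-test, which called 1 of the 8 members. At an unadjusted p under 0.05 this t-test gave 8 members and 5718 of all genes. Between the saline groups, 10 genes became 35 with array weights and 21 with the 2 groups alone. In the interaction, 6 genes (2 higher, 4 lower) became 63 with array weights, 3 over genes above background, 10 with a trend and robust prior, 2 (0 higher, 2 lower) after quantile normalization and 9 (5 higher, 4 lower) after median centring. Fits of 2 groups and the unpaired t-test do not apply to it. Array weights turned the difference of Tlr8 between the saline groups to 0.01 and the interaction of Nfkbiz to -0.07.

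With each array left out in turn, genes called ranged from 2 to 1174 between KO AKI and WT AKI (members 0 to 2), from 1469 to 4040 between WT AKI and WT control, from 1 to 27 between the saline groups and from 0 to 337 in the interaction. Without any 1 of the 6 WT arrays the WT count was 1469 to 1806. Members called ranged from 7 to 8 in KO and from 5 to 7 in WT after cisplatin. The sign turned for Tlr2 (-0.22 to 0.50) and Relb (-0.22 to 0.04) between KO AKI and WT AKI, for Tlr4 between WT AKI and WT control (-0.05 to 0.62), for Tlr8 (-0.23 to 0.10), Myd88 (-0.09 to 0.04) and Nfkbiz (-0.14 to 0.59) between the saline groups and for the interaction of Nfkbiz (-0.25 to 0.49), none of them called. The causes were not tested. Signals below background limit Tlr8 and Relb on all arrays.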

Other observations

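Cytokines of the NF-kB target list, named here after their values were seen, gave low signals in these kidneys. Tnf was below background on all 12 arrays, with a mean of 3.59 in KO AKI and 3.45 in WT AKI, and of 3.02 in KO control and 3.10 in WT control (n = 3 each). Il1b was above background on 0 KO AKI, 2 WT AKI, 1 KO control and 1 WT control arrays, and its highest signal, 7.91, was on WT control replicate 2. Il6 read 5.47, 8.26 and 4.79 in KO AKI and 4.53, 5.28 and 6.90 in WT AKI, above background on 1 array of each group and on 0 control arrays, so that no fold is given. It was called in KO AKI against KO control (adjusted p = 0.012 from limma). Against WT control the adjusted p of WT AKI was 0.0524, under 0.05 in 4 of the 12 fits that each left out 1 array and 0.0022 without KO AKI replicate 2. The responses of the genotypes were not called different (adjusted p = 0.908).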
